A study of Mus musculus with 4 samples.

Results

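The genes of the complement and coagulation cascades were followed in the RNA of isolated mouse hepatocytes. A list of 52 mouse symbols, covering the components, inhibitors and receptors of both cascades, was matched to the genes in the files, and all 52 were found among the 22298 genes listed. Male C57BL/6 mice, wild type and bought at 8 weeks of age, were fed a methionine- and choline-deficient (MCD) diet for 6 weeks, which produces fatty liver with inflammation. One group then received tamoxifen, a selective estrogen receptor modulator, at 100 mg/kg by intraperitoneal injection on 5 consecutive days, and the other received the vehicle corn oil, so both groups shared the diet. RNA was sequenced in 2 libraries of each group, labelled day 5, and nothing in the labels ties each library to a mouse of its own. The p-values therefore cover the spread between libraries, which may be technical. The comparison asked how the treatment changed gene expression in the hepatocytes of these fatty livers.

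Complement and coagulation are chains of plasma proteins, many of them proteases that activate the next one by cutting it. Complement starts when C1q binds antibody or when mannose-binding lectins bind microbial sugars, passes through C4, C2 and C3, and ends in a pore built from C5 to C9. Coagulation starts from tissue factor or from contact with charged surfaces, converts prothrombin to thrombin, and ends in a fibrin mesh that plasmin dissolves. Hepatocytes secrete most of these proteins into blood, and several of them are acute phase proteins whose transcription rises when interleukin-6 acts on the liver. A few members are made elsewhere. C1q, properdin, the factor XIII A chain and the receptors for the anaphylatoxins C3a and C5a come mainly from macrophages and other myeloid cells. By this textbook knowledge, not by the files, 35 members were classed as hepatocyte-made, 7 as leukocyte-made and 10 as of mixed source. The last group is made also, or mainly, by macrophages, fibroblasts or endothelium. Members and classes were chosen with earlier results of these data known, so differences between the classes are a description only.

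Values were deposited as FPKM, fragment counts scaled by transcript length and by library depth, which can be compared between genes. The depth was estimated at 16600000 to 20700000 fragments per library, with both tamoxifen libraries below both vehicle libraries. The cells carried hepatocyte transcripts at high levels, with 15 hepatocyte markers summing to 53022 and 41279 FPKM in vehicle 1 and 2 and to 81951 and 78676 FPKM in tamoxifen 1 and 2. Markers of other liver cells were present too, most of them higher in vehicle. The 13 markers of Kupffer cells and other macrophages summed to 1460 and 2968 FPKM in vehicle and to 112 and 178 FPKM in tamoxifen. Vehicle 2 stood apart from vehicle 1, since 8248 of the 11633 genes tested were higher in it and 12 pancreatic acinar markers summed to 1154 FPKM there against 8.40 to 48.0 FPKM in the other libraries. In bulk RNA, fewer cells of a type and less RNA per cell cannot be told apart.

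After tamoxifen the cascades split by source. On the values as deposited, most hepatocyte-made members rose, led by the 3 fibrinogen chains, and all leukocyte-made members that could be tested fell. Of 52 members, 51 reached 1 FPKM in at least 2 libraries and were tested with limma, and 30 were higher and 8 lower at an adjusted p under 0.05, with 13 not called. Over all genes tested, 4.31% were higher (501 of 11633) and 46.7% were lower (5432 of 11633). The median log2 fold change of log2(FPKM + 1) was 0.88 over the members and −0.60 over all genes tested. Both tamoxifen libraries lay above both vehicle libraries for 36 of the 52 members, against 9.48% of all genes tested, and below them for 12, against 71.9%. The hepatocyte-made members gave 26 higher, 1 lower and 8 not called, with a median of 1.04. The members of mixed source gave 4 higher, 1 lower and 5 not called, with a median of 0.05. All 6 leukocyte-made members tested were lower, with a median of −3.08 and a range from −3.47 to −2.64.

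**Figure D1:**
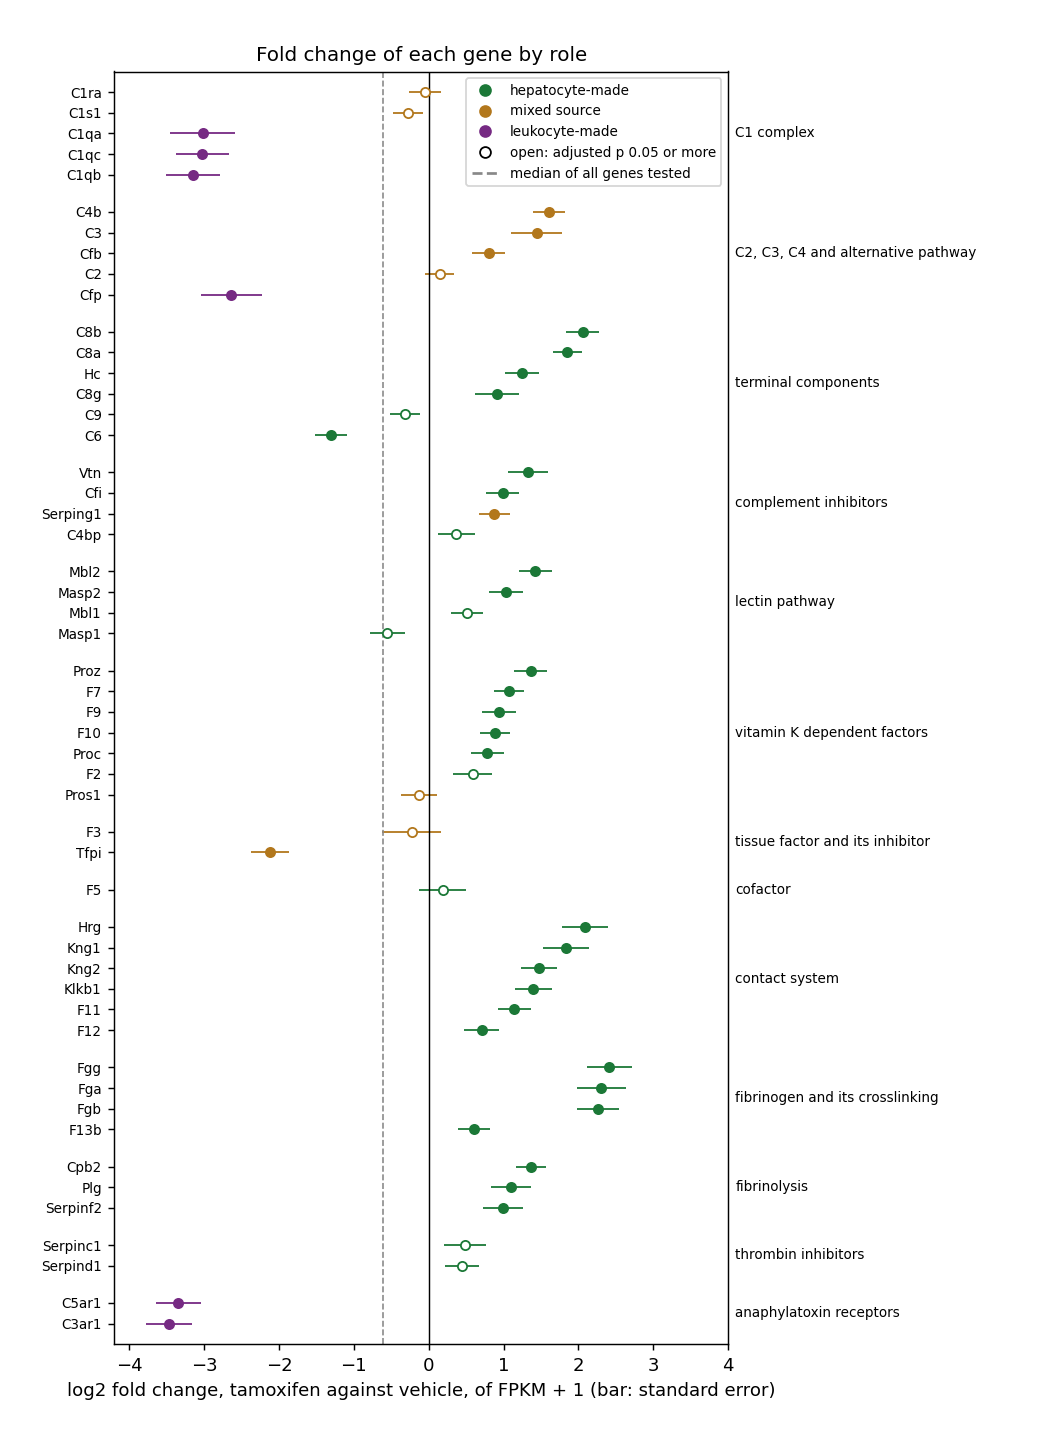
Log2 fold change of FPKM + 1, tamoxifen against vehicle, for the 51 members tested, in rows by role. Points are coloured by source class, bars are standard errors from limma over 2 libraries a group, open points were not called, and the dashed line is the median of all genes tested at −0.60. Fibrinogen lies between 2.26 and 2.42 and the leukocyte-made members lie between −3.47 and −2.64.

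The size of the rise depended on how the libraries were put on a common scale. Rescaling by the median of ratios moved the median of all genes tested from −0.60 to 0.06 on the log2 scale. There 36 members were higher and 8 lower, against 16.6% and 19.4% of all genes tested. Quantile normalization gave 26 higher and 7 lower, against 13.4% and 13.7% of all genes tested. A rescaling by the 15 hepatocyte markers, chosen after seeing the data, asks how members moved relative to other hepatocyte transcripts, and it moved the median of all genes to −1.33. On that scale 8 members were higher and 13 lower, against 1.06% and 79.7% of all genes tested. The 8 were Fga, Fgb, Fgg, Hrg, C8a, C8b, Kng1 and C4b, with log2 fold changes from 0.73 for C4b to 1.53 for Fgg. Cfb, Serping1, F12, F13b and Proc, called higher as deposited, had log2 fold changes just below 0 there, from −0.26 to −0.00041. The median of the hepatocyte-made members was 0.17. Calls on this scale are not like for like with those on the other scales. For C1qb the limma adjusted p was 1.2e-25 here (log2 fold change −4.01) and 0.000971 as deposited, with a standard error of 0.36 in both. The leukocyte-made members stayed lower under each of these scalings, with medians from −3.88 to −2.30.

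**Figure D2:**
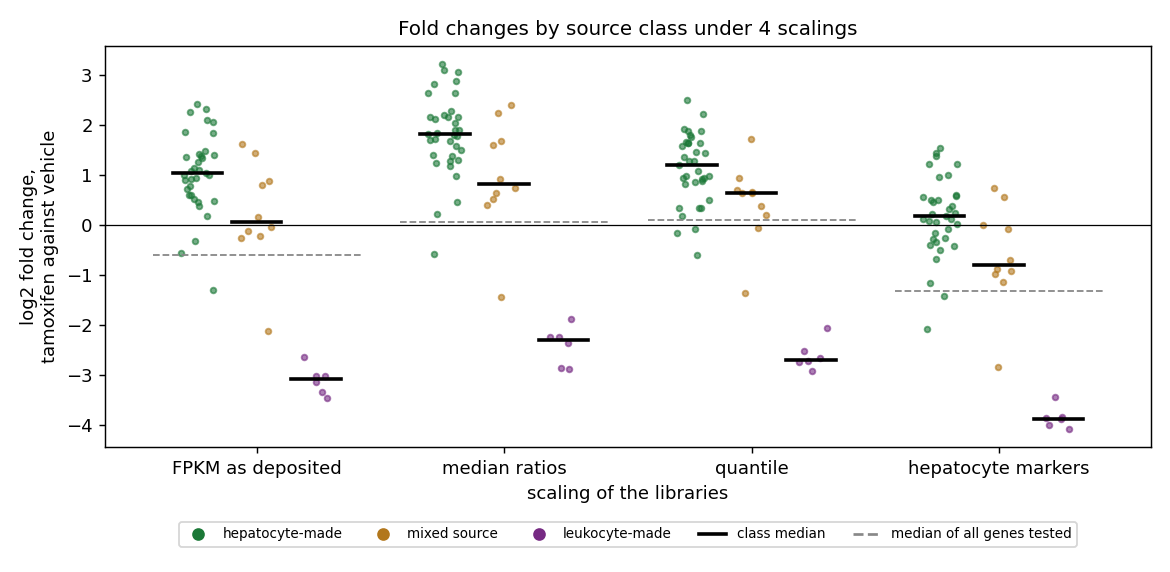
Log2 fold change of each member tested, tamoxifen against vehicle, by source class under 4 scalings of the libraries. Points are members, solid bars are class medians and dashed lines are the median of all genes tested. The hepatocyte-made median lies at 1.04 as deposited and at 0.17 relative to hepatocyte markers, and the leukocyte-made median stays between −3.88 and −2.30.

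The C1 complex, which opens the classical pathway, divided into its recognition subunit and its proteases. C1q is built from 3 chains whose genes lie side by side on chromosome 4 (GRCm38, 136880129 to 136898803), and all 3 fell. C1qa was at 119.9 and 241 FPKM in vehicle and at 13.3 and 30.1 FPKM in tamoxifen (log2 fold change −3.02 with standard error 0.43, limma adjusted p = 0.00184). C1qb was at 182 and 357 FPKM in vehicle and at 21.9 and 35.5 FPKM in tamoxifen (−3.14 with standard error 0.36, limma adjusted p = 0.000971). C1qc was at 143 and 280.5 FPKM in vehicle and at 18.55 and 30.4 FPKM in tamoxifen (−3.02 with standard error 0.36, limma adjusted p = 0.00108). The groups did not overlap for any of the 3 chains, and 71.9% of all genes tested also lay lower in both tamoxifen libraries. Vehicle 2 was the highest library for each chain, and tamoxifen 2 was above tamoxifen 1 for each. C1qb was at 1.27, 1.27, 1.18 and 1.17 times C1qc in vehicle 1 and 2 and tamoxifen 1 and 2. Its ratio to C1qa varied more, at 1.52, 1.48, 1.65 and 1.18 in the same order. Of the 13 macrophage markers 12 were called, all of them lower, and Cd163 was not called. The part of macrophage RNA in the fall of C1q was not tested.

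The 250 bases before the start are shown for C1qb (chr4:136886201-136886450) and C1qc (chr4:136892915-136893164), on the minus strand of GRCm38.p6 as RefSeq gives it, because these chains moved together and in the opposite direction from fibrinogen. Capitals mark a match to GAGGAAGT, a motif of the myeloid factor PU.1, read on the other strand 195 to 188 bases before the start of C1qc.
C1qb: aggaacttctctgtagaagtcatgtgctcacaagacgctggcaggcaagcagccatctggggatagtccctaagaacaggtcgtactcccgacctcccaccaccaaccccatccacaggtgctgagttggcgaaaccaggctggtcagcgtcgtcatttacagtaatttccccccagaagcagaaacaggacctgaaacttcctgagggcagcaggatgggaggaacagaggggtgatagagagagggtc
C1qc: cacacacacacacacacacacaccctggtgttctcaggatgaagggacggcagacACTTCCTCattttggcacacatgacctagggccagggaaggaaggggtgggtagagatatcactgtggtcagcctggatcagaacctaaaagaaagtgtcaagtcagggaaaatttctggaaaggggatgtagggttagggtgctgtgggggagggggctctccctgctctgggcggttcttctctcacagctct
The search found no match in the window of C1qb. A match is a description and not a binding site.

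The proteases that C1q activates were not called on the values as deposited. C1ra, the mouse gene for C1r, was at 82.9 and 66.0 FPKM in vehicle and at 67.1 and 75.6 FPKM in tamoxifen, and the groups overlapped (log2 fold change −0.05 with standard error 0.21, limma adjusted p = 0.842). Its direction was not fixed, since rescaling by median ratios turned the log2 fold change to 0.73, and relative to hepatocyte markers it was −0.92 and called lower. C1s1, for C1s, was at 118 and 114 FPKM in vehicle and at 90.3 and 101 FPKM in tamoxifen. It was not called at −0.27, turned to 0.52 after median ratios, and was called lower relative to hepatocyte markers at −1.15. Both have a near-identical copy in the mouse genome, C1rb and C1s2, to which reads could have been assigned. In the files C1rb was at or below 0.13 FPKM and C1s2 was listed at 0 in every library.

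In the lectin pathway, the mannose-binding lectins and their proteases, 2 of 4 members rose and 2 were not called. Mbl2, the C form of mannose-binding lectin, rose with a log2 fold change of 1.42 and Masp2, the protease that cleaves C4 and C2, with 1.04. Mbl1, the A form, was at 36.6 and 30.9 FPKM in vehicle and at 54.0 and 43.6 FPKM in tamoxifen and was not called. Masp1 was at 43.0 and 62.2 FPKM in vehicle and at 34.4 and 35.4 FPKM in tamoxifen, lower in both tamoxifen libraries, and was not called at −0.55. It was called lower without vehicle 1 (−0.82, limma adjusted p = 0.0279) and relative to hepatocyte markers (−1.42), and rescaling by median ratios turned it to 0.22.

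C4 and C3, the proteins on which the pathways converge, rose. C4b was at 87.8 and 82.9 FPKM in vehicle and at 242 and 283 FPKM in tamoxifen (log2 fold change 1.61 with standard error 0.21, limma adjusted p = 0.00142). C4a, its near-identical neighbour, was not matched in the files, so reads of C4a may have been counted to C4b. C3, the central component, was among the most abundant members, at 1799.9 and 1118 FPKM in vehicle and at 3719 and 3995 FPKM in tamoxifen (1.44 with standard error 0.34, limma adjusted p = 0.0115). Cfb, whose protein is the catalytic part of the alternative convertase, was at 287 and 267 FPKM in vehicle and at 457 and 509 FPKM in tamoxifen (0.80 with standard error 0.22, limma adjusted p = 0.0214). Both tamoxifen libraries exceeded both vehicle libraries for C4b, C3 and Cfb. The call of C3 was lost without tamoxifen 1 (limma adjusted p = 0.0693), without tamoxifen 2 (0.0937), with no filter (0.0760), by quantile normalization (0.0611, at a log2 fold change of 0.71) and relative to hepatocyte markers (0.0606, at 0.56). That of Cfb was lost without vehicle 2 (limma adjusted p = 0.0570), tamoxifen 1 (0.0911) or tamoxifen 2 (0.159), by quantile normalization (0.0597) and relative to hepatocyte markers (at −0.080). C2, which lies beside Cfb on chromosome 17 and forms the classical convertase with C4b, ranged from 25.6 to 30.3 FPKM over the 4 libraries and was not called.

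Properdin, the leukocyte protein that stabilizes the alternative convertase, went the other way. Cfp was at 33.3 and 68.8 FPKM in vehicle and at 4.60 and 10.1 FPKM in tamoxifen (log2 fold change −2.64 with standard error 0.41, limma adjusted p = 0.00253). Its libraries stood in the same order as those of C1qa, with vehicle 2 highest and tamoxifen 1 lowest. Cfb and Cfp, both of the alternative pathway, thus moved in opposite directions.

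The receptors for the anaphylatoxins, the small fragments released from C3 and C5, fell, with the lowest log2 fold changes of the members on the values as deposited. Their place in that order was not fixed, since C1qb lay below both after quantile normalization, at −2.93 against −2.73 for C3ar1, and without tamoxifen 2, at −3.48 against −3.40 for C5ar1. C3ar1 was at 15.9 and 28.3 FPKM in vehicle and at 1.21 and 0.82 FPKM in tamoxifen (log2 fold change −3.47 with standard error 0.30, limma adjusted p = 0.000541). C5ar1 was at 9.50 and 16.9 FPKM in vehicle and at 0.30 and 0.40 FPKM in tamoxifen (−3.35 with standard error 0.30, limma adjusted p = 0.000555). The mean of C3ar1 was 21.7 times higher in vehicle than in tamoxifen and that of C5ar1 was 37.7 times higher. Levels under 1 FPKM make the log2(FPKM + 1) scale understate these ratios. Neither receptor's groups overlapped, and both receptors were highest in vehicle 2. Of all genes tested, 71.9% also lay lower in both tamoxifen libraries than in both vehicle libraries.

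The terminal components, which form the membrane attack pore, gave 4 higher, 1 lower and 1 not called. C8a and C8b, the neighbouring genes for the alpha and beta chains of C8 on chromosome 4, rose together. C8a was at 28.4 and 27.4 FPKM in vehicle and at 101 and 106 FPKM in tamoxifen (log2 fold change 1.85 with standard error 0.19, limma adjusted p = 0.000788). C8b was at 18.95 and 14.7 FPKM in vehicle and at 78.8 and 67.3 FPKM in tamoxifen (2.06 with standard error 0.22, limma adjusted p = 0.000839). For both chains the gap between the groups was larger than the spread within them, and both were still higher relative to hepatocyte markers, at 0.99 and 1.21. C8g, the gamma chain, is on chromosome 2 and was called at 0.91 with tamoxifen libraries far apart, at 103 and 55.9 FPKM. Its call was lost without vehicle 1, vehicle 2 or tamoxifen 1, with no filter and relative to hepatocyte markers, and its log2 fold change without tamoxifen 1 was 0.48. Hc, the mouse gene for C5, rose with a log2 fold change of 1.25.

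C6 was the only hepatocyte-made member called lower on the values as deposited. It was at 14.2 and 16.6 FPKM in vehicle and at 5.46 and 5.83 FPKM in tamoxifen (log2 fold change −1.30 with standard error 0.21, limma adjusted p = 0.00288). The libraries of each group lay close together and the groups did not overlap. Quantile normalization brought it to −0.60 and ended the call (limma adjusted p = 0.0518), while relative to hepatocyte markers it was −2.08. C8b was 1.33 and 0.886 times as high as C6 in the vehicle libraries and 14.4 and 11.5 times as high in the tamoxifen libraries, taken on the FPKM as deposited. C9, which polymerizes to line the pore, lies near C6 on chromosome 15. It was at 30.3 and 34.7 FPKM in vehicle and at 26.7 and 24.9 FPKM in tamoxifen and was not called. Relative to hepatocyte markers C9 was called lower at −1.17, and rescaling by median ratios turned it to 0.45. C7, which joins the pore between C6 and C8 and is no member of the list, was between 0.04 and 0.14 FPKM in all libraries.

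Of the complement inhibitors, 3 of 4 rose. Serping1, the C1 inhibitor that also restrains kallikrein and factor XII, was at 138 and 150.3 FPKM in vehicle and at 258 and 273 FPKM in tamoxifen (log2 fold change 0.88 with standard error 0.21, limma adjusted p = 0.0117), with no overlap between the groups. Relative to hepatocyte markers its log2 fold change was −0.00041 and it was not called, and without tamoxifen 1 or tamoxifen 2 it was not called (limma adjusted p = 0.0623 and 0.0893). Vtn, vitronectin, which blocks pore assembly, rose with 1.33 and Cfi, the protease that inactivates C3b and C4b, with 0.99. C4bp, a cofactor for Cfi, was abundant, between 206 and 327 FPKM, and was not called at 0.37.

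On the coagulation side, the 3 fibrinogen chains had the highest log2 fold changes of all members on the values as deposited. This order depended on the processing, since after quantile normalization the chains lay at 1.63 to 1.80, below C8b at 2.49 and C8a at 2.22, and without tamoxifen 2 C8b at 2.17 lay above Fga at 2.12. Its 3 chains are coded by neighbouring genes on chromosome 3 (GRCm38, 83007724 to 83049863) and are secreted as one molecule. Because they moved together, the 250 bases before each start are shown from RefSeq on GRCm38.p6, for Fga (chr3:83025903-83026152, plus strand), Fgb (chr3:83049864-83050113, minus strand) and Fgg (chr3:83007474-83007723, plus strand). Capitals mark matches on either strand to TTGCNNAA, a motif of the C/EBP factors, and to TTCNNNGAA, a motif of the STAT factors. Both families are known to act on acute phase genes.
Fga: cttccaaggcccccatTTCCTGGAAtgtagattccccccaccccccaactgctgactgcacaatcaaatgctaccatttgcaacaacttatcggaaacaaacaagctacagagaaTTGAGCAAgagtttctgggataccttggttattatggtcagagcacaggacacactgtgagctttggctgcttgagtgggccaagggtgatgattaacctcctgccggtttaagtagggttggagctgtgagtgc
Fgb: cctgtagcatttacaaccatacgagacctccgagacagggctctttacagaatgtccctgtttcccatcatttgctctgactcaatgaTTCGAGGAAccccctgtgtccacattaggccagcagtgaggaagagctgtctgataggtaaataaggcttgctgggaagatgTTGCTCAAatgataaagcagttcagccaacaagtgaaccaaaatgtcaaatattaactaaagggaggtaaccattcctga
Fgg: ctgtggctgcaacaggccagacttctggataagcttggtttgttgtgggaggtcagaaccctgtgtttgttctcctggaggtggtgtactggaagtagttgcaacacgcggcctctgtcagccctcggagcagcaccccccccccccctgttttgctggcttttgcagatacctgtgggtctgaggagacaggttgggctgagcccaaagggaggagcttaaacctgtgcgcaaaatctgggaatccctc
In Fga the STAT match lies 234 to 226 bases before the start. The C/EBP match of Fga, read on the other strand, lies 135 to 128 bases before it. In Fgb the STAT match lies 162 to 154 and the C/EBP match 80 to 73 bases before it, and no matches overlap in either window. No match was found in the window of Fgg.

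Fga, the alpha chain, was at 1169.9 and 881 FPKM in vehicle and at 4427 and 5726 FPKM in tamoxifen (log2 fold change 2.31 with standard error 0.32, limma adjusted p = 0.00173). Fgb, the beta chain, was at 535 and 413 FPKM in vehicle and at 2019 and 2511 FPKM in tamoxifen (2.26 with standard error 0.28, limma adjusted p = 0.00125). Fgg, the gamma chain, was at 983 and 812 FPKM in vehicle and at 4289 and 5311 FPKM in tamoxifen (2.42 with standard error 0.30, limma adjusted p = 0.00127). Every chain had vehicle 2 lowest and tamoxifen 2 highest, and the gap between groups far exceeded the spread within them. The chains kept similar proportions, with Fga at 2.19, 2.13, 2.19 and 2.28 times Fgb in vehicle 1 and 2 and tamoxifen 1 and 2. The ratio of Fga to Fgg varied more, at 1.19, 1.08, 1.03 and 1.08 in the same order. Together the 3 chains summed to 2688 and 2107 FPKM in vehicle and to 10735 and 13549 FPKM in tamoxifen. They made up 23.6% and 22.8% of the summed FPKM of all 52 members in vehicle and 41.9% and 44.5% in tamoxifen.

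**Figure D3:**
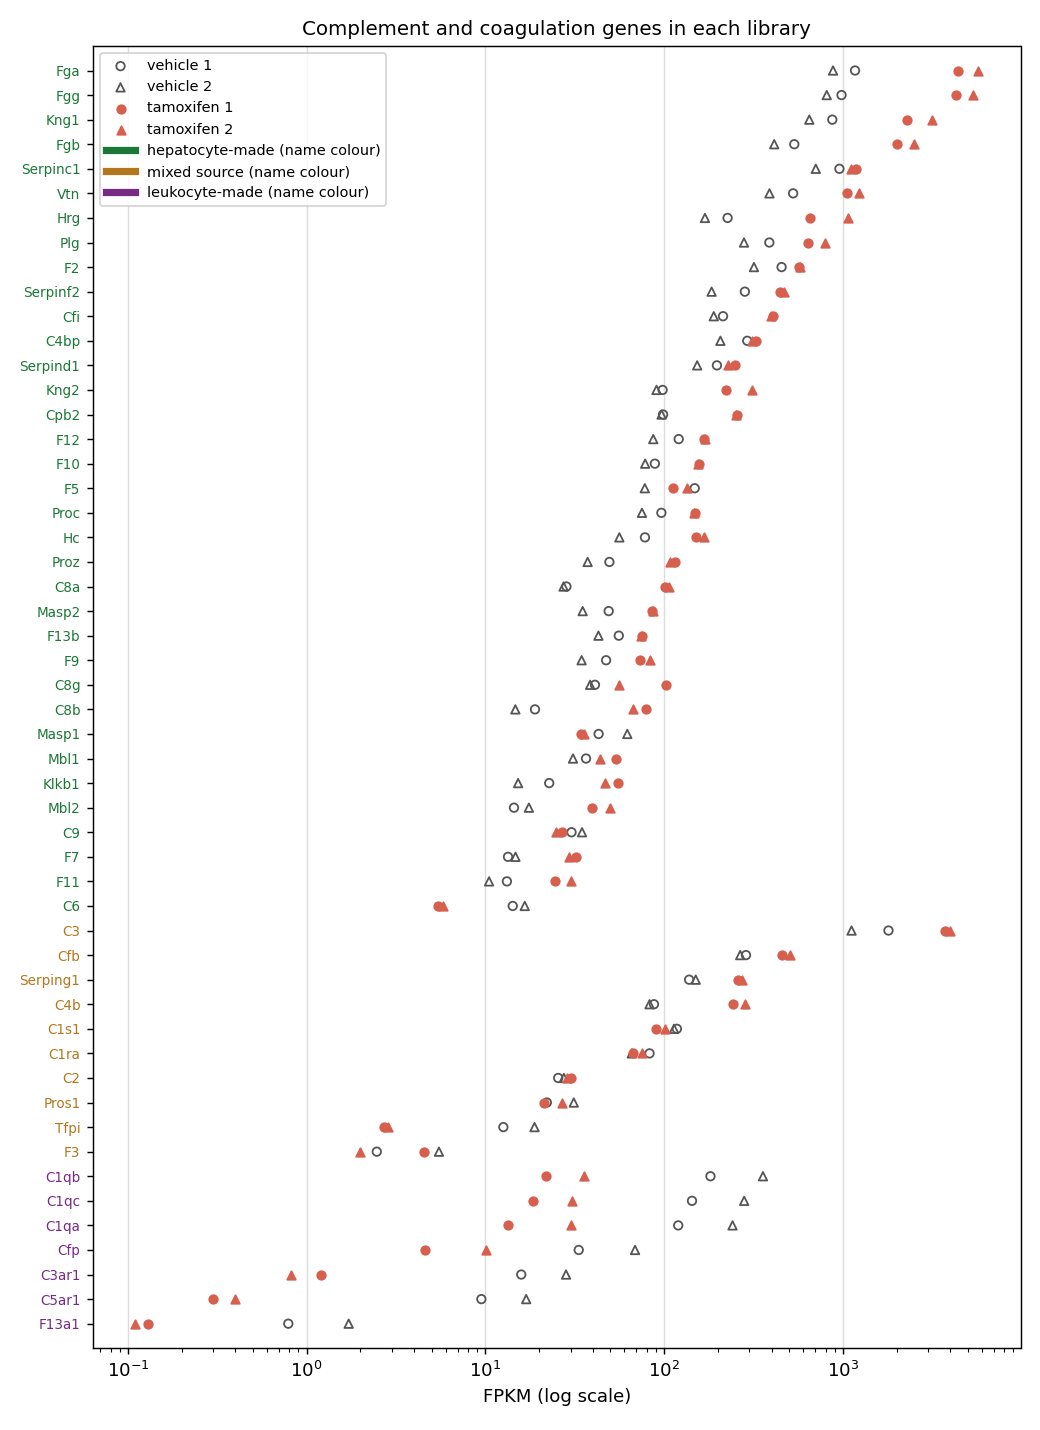
FPKM of all 52 members in each of the 4 libraries, on a log axis, with open symbols for vehicle, filled symbols for tamoxifen, circles for replicate 1 and triangles for replicate 2, in rows grouped by source class. All 7 leukocyte-made members lie lower in both tamoxifen libraries than in both vehicle libraries, as do 71.9% of all genes tested. Fga, Fgg, Kng1, Fgb and C3 lie higher in both tamoxifen libraries, as do 9.48% of all genes tested.

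Factor XIII crosslinks fibrin, and its 2 chains come from different cells. F13b, the carrier B chain from hepatocytes, was at 55.8 and 42.9 FPKM in vehicle and at 75.2 and 74.55 FPKM in tamoxifen and was called at 0.60 close to the threshold (limma adjusted p = 0.0475). F13a1, the catalytic A chain made by macrophages and megakaryocytes, was at 0.79 and 1.72 FPKM in vehicle and at 0.13 and 0.11 FPKM in tamoxifen. It reached 1 FPKM in 1 library only and was the 1 member left untested. Without the filter on low values it had −0.98 on the log2 scale (limma adjusted p = 0.0422). Megakaryocyte and platelet markers were low, with Gp9 at 0 in every library, and all 3 that could be tested were lower in tamoxifen.

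The contact system was the largest role in which every member rose on the values as deposited, at 6 of 6. Hrg, a histidine-rich plasma protein related to the kininogens, was at 227 and 169 FPKM in vehicle and at 654 and 1071 FPKM in tamoxifen (log2 fold change 2.09 with standard error 0.31, limma adjusted p = 0.00203). The tamoxifen libraries lay well apart, and both exceeded both vehicle libraries. Kng1 and Kng2, the kininogens from which bradykinin is cut, lie beside Hrg on chromosome 16. Kng1, among the most abundant members, was at 873 and 649 FPKM in vehicle and at 2293 and 3137 FPKM in tamoxifen (log2 fold change 1.83 with standard error 0.31, limma adjusted p = 0.00341), and its groups did not overlap. Kng2 rose with 1.47. The 2 genes are closely related copies, so reads may have been split between them. Klkb1, plasma prekallikrein, rose with 1.40, F11, factor XI, with 1.14, and F12, factor XII, with 0.71. Of these 6, Hrg and Kng1 were also higher relative to hepatocyte markers, at 1.21 and 0.95.

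Tissue factor and its inhibitor, which open and close the extrinsic pathway, did not rise. Tfpi, tissue factor pathway inhibitor, known mainly from endothelium, was at 12.6 and 18.8 FPKM in vehicle and at 2.70 and 2.85 FPKM in tamoxifen (log2 fold change −2.12 with standard error 0.25, limma adjusted p = 0.00107). The groups did not overlap, and vehicle 2 was again the higher vehicle library. All 10 markers of sinusoidal endothelium were lower too, with a median of −1.91 and sums of 407 and 650 FPKM in vehicle and 116 and 143 FPKM in tamoxifen. The part of endothelial RNA in the fall of Tfpi was not tested. F3, tissue factor itself, was low, at 2.47 and 5.50 FPKM in vehicle and 4.55 and 1.98 FPKM in tamoxifen, and its groups overlapped.

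Of the 7 vitamin K dependent factors, whose proteins are carboxylated in the liver before secretion, 5 rose. Proz, protein Z, rose with a log2 fold change of 1.36, F7 with 1.07, F9 with 0.94, F10 with 0.89 and Proc, protein C, with 0.78. F7, F10 and Proz are neighbours on chromosome 8. F2, prothrombin, was the most abundant of them, at 454 and 318 FPKM in vehicle and at 568 and 575 FPKM in tamoxifen, and was not called at 0.59. Pros1, protein S, which endothelium also makes, was at 22.1 and 31.2 FPKM in vehicle and at 21.3 and 26.9 FPKM in tamoxifen, with overlapping groups (log2 fold change −0.13 with standard error 0.24, limma adjusted p = 0.672). Rescaling by median ratios turned this to 0.64, and relative to hepatocyte markers it was −0.98. F5, the cofactor of activated factor X, was at 148 and 78.0 FPKM in vehicle and at 112 and 133 FPKM in tamoxifen and was not called.

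Neither of the thrombin inhibitors was called. Serpinc1, antithrombin, was at 956 and 706 FPKM in vehicle and at 1183 and 1117 FPKM in tamoxifen and was not called at 0.48, and Serpind1, heparin cofactor II, was not called at 0.45. After quantile normalization the log2 fold change of Serpinc1 was −0.08. Rescaling by median ratios called both higher, Serpinc1 at 1.28 (limma adjusted p = 0.0264) and Serpind1 at 1.24 (limma adjusted p = 0.0141). In fibrinolysis all 3 members rose. Cpb2, a carboxypeptidase that protects fibrin, was at 98.7 and 96.8 FPKM in vehicle and at 256 and 251 FPKM in tamoxifen, and rose with 1.37. Plg, plasminogen, rose with 1.10 and Serpinf2, the inhibitor of plasmin, with 1.00.

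The vehicle libraries also differed from each other by source class. Vehicle 2 exceeded vehicle 1 for all 7 leukocyte-made members, with a median log2 difference of 0.96, and for 5 of 35 hepatocyte-made members, with a median of −0.37. The fall of the leukocyte-made members did not rest on vehicle 2. Without it their median was −2.60, and all 6 tested were still called. The count of members called higher did depend on single libraries. It fell without vehicle 2, tamoxifen 1 or tamoxifen 2, and so did the count over all genes tested. The median log2 fold change over all genes tested ran from −0.69 without vehicle 1 to −0.52 without vehicle 2. Over 11 alternatives chosen with the design, 16 of the 30 higher members and 7 of the 8 lower members kept their call in each. The 16 were Fga, Fgb, Fgg, Hrg, Kng1, Kng2, Klkb1, C8a, C8b, Hc, C4b, Mbl2, Masp2, F7, Proz and Cpb2, and the lower member that lost its call was C6. The other 14 higher members, C3, Cfb, C8g, Cfi, Serping1, Vtn, F9, F10, F11, F12, F13b, Plg, Proc and Serpinf2, lost it in at least 1 alternative. Of the 13 members not called, 0 kept both their direction and their lack of a call in every alternative.

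Sums over the classes set the members beside the marker lists. The 35 hepatocyte-made members summed to 8305 and 6346 FPKM in vehicle and to 20674 and 25046 FPKM in tamoxifen. Relative to the sum of the hepatocyte markers this was 15.7% and 15.4% in vehicle and 25.2% and 31.8% in tamoxifen. Alb made up most of that marker sum, at 35301 and 26382 FPKM in vehicle and 50399 and 45402 FPKM in tamoxifen. It was not called (log2 fold change 0.65). The fibrinogen chains made up 32.4% and 33.2% of the hepatocyte-made sum in vehicle and 51.9% and 54.1% in tamoxifen. The 7 leukocyte-made members summed to 504 and 995 FPKM in vehicle and to 60.0 and 107 FPKM in tamoxifen. Relative to the sum of the macrophage markers this was 34.5% and 33.5% in vehicle and 53.6% and 60.5% in tamoxifen. The leukocyte-made sum was therefore lower in tamoxifen by a smaller factor than the macrophage marker sum. In vehicle the C1q chains led the first sum, and Lyz2, at 577 and 1262 FPKM, led the second. Single genes differed. Vehicle means were 8.33 to 9.38 times higher for the C1q chains, 21.7 times for C3ar1 and 37.7 times for C5ar1. The markers ran from −4.71 for Lyz2 to −0.80 for Cd163 on the log2 scale.

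**Figure D4:**
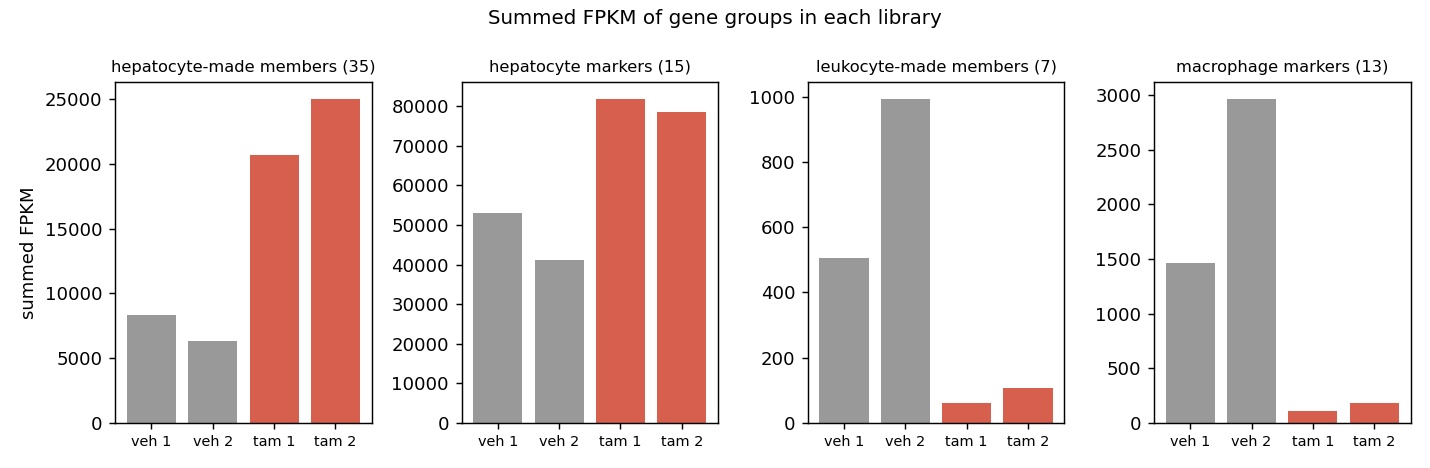
Summed FPKM in each library, with 1 bar per library and axes from 0, for the 35 hepatocyte-made members, the 15 hepatocyte markers, the 7 leukocyte-made members and the 13 macrophage markers. The hepatocyte-made sum lies at 8305 and 6346 FPKM in vehicle and at 20674 and 25046 FPKM in tamoxifen, and the leukocyte-made sum lies at 60.0 and 107 FPKM in tamoxifen beside macrophage marker sums of 112 and 178 FPKM.

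Genes of the same pathways outside the 52 were taken from a list written with the design. Of 27 further complement genes, 18 were tested, and 4 were higher and 9 lower, with a median log2 fold change of −0.93. C1rl, a C1r-like protease, was among the higher genes (0.82). Among the lower genes were the integrin chains of the complement receptors, Itgb2 (−4.54), Itgax (−4.42) and Itgam (−3.02), the collectins Colec11 (−3.51) and Colec10 (−2.68), and ficolin A, Fcna (−2.77). Of 25 further coagulation and fibrinolysis genes, 19 were tested, and 1 was higher, Serpina10 (0.95), which with protein Z inhibits factor Xa. The 10 lower genes included the plasminogen activators Plau (−3.47) and Plat (−2.32), the receptor Plaur (−3.63), thrombomodulin, Thbd (−2.09), the protein C receptor Procr (−2.59), and F8 (−2.03), factor VIII, which endothelium makes. Over all genes tested, 4.31% were higher and 46.7% lower, so the lower counts of both lists lay near the general share. The markers of stellate cells were lower too, at 10 of 10 with a median of −3.31.

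Sequence before the start was searched for 42 members, with 46 windows of 300 bases from RefSeq, 250 before and 50 after the start. TTGCNNAA, the C/EBP motif, on either strand, was in 28.3% of member windows (13 of 46) and in 10.8% of all 32851 windows. TTCNNNGAA, the STAT motif, was in 17.4% (8 of 46) against 8.30%, and it reads the same on both strands. GAGGAAGT, for PU.1, was in 4.35% (C1qc and F13a1, both leukocyte-made) against 3.20%. CAAAGTCCA, for HNF4, was in no member window and in 0.475% of all windows, and the HNF1 motif, GTTAAT and ATTAAC with 1 base between them, was in no member window and in 0.00913% of all windows (3 of 32851). Each motif was counted on its own, whether or not it overlapped another. The members with a C/EBP match were C1ra, C1s1, C3, C9, Cpb2, F11, F9, Fga, Fgb, Hrg, Klkb1, Kng2 and Serpinc1, of which 9 were called higher and 4 were not called. Of all 51 members tested, 30 were called higher, and a link between match and change was not tested.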

How the data were processed

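Hepatocyte RNA came from 2 vehicle and 2 tamoxifen libraries, grouped by their labels. The authors deposited FPKM per gene to 2 decimals. The submitters' notes list RSEM, HISAT2, Bowtie2, StringTie 1.3.1 and fastp 0.18.0 without roles. The sources used here give neither the authors' genome build nor their annotation. Coordinates are those of GENCODE M21 (GRCm38), and 22255 of 22298 identifiers matched a symbol. The step between neighbouring low FPKM values of short single-transcript genes gave an estimate of depth, which limits the precision at low levels. The library kit does not mark strand, so overlapping genes cannot be told apart.

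Log2(FPKM + 1) was fitted with R 4.3.3 and limma 3.58.1 (lmFit, eBayes with trend, two-sided), for genes that reached 1 FPKM in 2 or more libraries, with Benjamini-Hochberg adjustment over 11633 genes and calls at an adjusted p under 0.05. The fit was tested on simulated data. Alternatives were 2 rescalings, a pseudocount of 0.1, no filter, a mean of at least 5 FPKM, leaving out each library, a replicate term and no trend. A rescaling by hepatocyte markers was added after seeing the data. Full values are given for the leukocyte-made members, for the 6 largest called changes in each direction and the 3 highest means of each other class, and for the 2 members not called with the smallest change. The members, lists and source classes were chosen with earlier results of these data known. Genes of the other lists are examples of those lists. Some genes of these lists are not reported here. RefSeq windows were matched by symbol for 42 of 52 members. A comparison of C1q proteins in the design was not run. Python 3.11.15 with matplotlib 3.10.9 drew the figures.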

Additional observations from a re-analysis of the deposited data

How the results depend on the processing

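The counts of members called in each direction and the class medians kept their value within 1.5 times, or within the replicate spread, with a pseudocount of 0.1, no filter, the stricter filter and no trend. Rescaling by median ratios gave medians of 1.67 (all members), 1.82 (hepatocyte-made), 0.83 (mixed source) and −2.30 (leukocyte-made), and C1ra (0.73), C1s1 (0.52), C9 (0.45), Masp1 (0.22), F3 (0.39) and Pros1 (0.64) reversed. Quantile normalization gave a mixed-source median of 0.64 and 0 hepatocyte-made members lower, and C1ra (0.19), C9 (0.18), F3 (0.63), Pros1 (0.38) and Serpinc1 (−0.081) reversed. Rescaling by hepatocyte markers gave 8 members higher (7 hepatocyte-made, 1 of mixed source) and 13 lower (3 hepatocyte-made, 4 of mixed source). The medians were −0.00041, 0.17, −0.80 and −3.88 in the same order. Over all genes tested, 1.06% were higher and 79.7% lower on that scale, where calls are not like for like with the others. There C2 (−0.70), Cfb (−0.080), Mbl1 (−0.34), C4bp (−0.51), Serping1 (−0.00041), F2 (−0.29), F5 (−0.69), F12 (−0.17), F13b (−0.26), Proc (−0.090), Serpinc1 (−0.40) and Serpind1 (−0.43) reversed. Leaving out 1 library at a time gave 17 to 31 members higher (hepatocyte-made 16 to 27, mixed source 1 to 4), 1 to 2 hepatocyte-made members lower, and medians of 0.71 to 0.96, 0.87 to 1.28, 0.074 to 0.21 and −3.58 to −2.60. Over these fits C1ra ran from −0.22 to 0.11 (above 0 without vehicle 1 or tamoxifen 1), F3 from −0.68 to 0.23 (above 0 without vehicle 2 or tamoxifen 2), Pros1 from −0.37 to 0.11 (above 0 without vehicle 2 or tamoxifen 1), and F5 turned to −0.27 without vehicle 2. A group left with 1 library is assumed to vary like the other. In these fits the calls of members and of all genes tested changed with the library left out. The causes of these changes were not tested.

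The replicate numbers share only a number. With the replicate block, 30 members were higher and 8 lower, all 51 tested kept their call, and over all genes 573 were higher and 5863 lower. The difference of vehicle 1 minus vehicle 2 correlated with that of tamoxifen 1 minus tamoxifen 2 at 0.28 across 11633 genes. These genes are not independent.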
